A study of Sus scrofa domesticus with 4 samples.

Results

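Pro-opiomelanocortin (POMC), the prohormone convertases PCSK1 and PCSK2 and the chromogranins CHGA and CHGB were followed in porcine anterior pituitary cells cultured with adiponectin, a hormone of adipose tissue. The members were all probes on the array whose accession belongs to 1 of these 5 genes in the RefSeq annotation of the pig assembly Sscrofa11.1. There were 23 such probes among the 43603 probes of the array: 3 for POMC, 3 for PCSK1, 1 for PCSK2, 1 for CHGA and 15 for CHGB. These are 5 of the 2459 genes that the annotation names on the array. Of the 23 probes, 17 passed the filter on dim or incomplete probes and were tested.

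The treated cells received recombinant human adiponectin at 10 µg/ml for 24 h in serum-free medium with bacitracin, and the control cells the same medium alone. Both came from dispersed anterior lobes of Large White x Polish Landrace gilts aged 7 to 8 months and were precultured for 48 h. The glands were collected on cycle days 10 to 12 (mid-luteal), which another label calls a period of pregnancy. These were mixed primary cultures of all cell types of the gland, from 4 gilts, exposed to the human protein. Each of 4 two-colour arrays carried both RNAs: arrays 1 and 3 had treated RNA labelled red with Cy5, and for arrays 2 and 4 the dyes were exchanged, with treated RNA in the green dye Cy3. The labels do not tie gilts to arrays, so p-values measure only the spread between these 4 arrays.

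POMC is the precursor of adrenocorticotropic hormone and is made by corticotrophs. PCSK1 cuts POMC into adrenocorticotropic hormone and beta-lipotropin, and PCSK2, which in the pituitary is known mainly from the melanotrophs of the intermediate lobe, cuts these further into melanocortins and endorphin. Chromogranins A and B are acidic proteins stored with the hormones in secretory granules and are used as markers of endocrine cells.

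None of the 17 tested probes passed the threshold of an adjusted p under 0.05 between treated and control cells. In the limma fit with a dye term, 0% of the 25883 tested probes had an adjusted p under 0.05, which is 0 probes, and 713 had an unadjusted p under 0.05 (269 with higher and 444 with lower values). Among the members, 1 probe had an unadjusted p under 0.05, a POMC probe with lower values in treated cells, against a background of 1.72% of all tested probes in that direction and 1.04% in the other. Fitted log2 ratios were below 0 for 16 of the 17 member probes. For all tested probes that share was 49.3%, and 13 of the 16 are probes of CHGB that measure the same RNA. The fitted ratio of treated over control cells was -0.07 for POMC, -0.04 for PCSK1, 0.01 for CHGA and -0.10 for CHGB, on the log2 scale. In the fit with 1 value per named gene, 3 of these 4 genes thus lay below 0, as did 49.1% of all 23654 features of that table.

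Signal and cell types of the cultures were checked first. Between 25081 and 29704 probes were well above background in treated RNA and between 27292 and 27686 in control RNA, and no spot was saturated. Among markers of the gland, GH1, PRL, LHB, FSHB, TSHB and CGA were well above background on 4 of 4 arrays, as was CRHR1, the receptor of corticotropin-releasing hormone. Of markers of the posterior lobe, the vasopressin gene AVP was well above background on 0 of 4 arrays and OXT, the oxytocin gene, on 4 of 4. The macrophage genes CD14 and LYZ and the fibroblast gene DCN were well above background on 4 of 4 arrays, as was the lymphocyte gene LCK, whereas CD4 and CD2 were so on 0 of 4. Of the other lymphocyte genes, CD3E was well above background on 4 arrays in treated and 2 in control RNA, and CD8A on 2 in each. Tested markers of non-endocrine cells had fitted ratios (log2, treated over control) from -0.04 to 0.10, and those of the other hormone cells from -0.18 (LHB) to 0.08 (GNRHR), none with an unadjusted p under 0.05 by limma. Their part in the results below was not tested.

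POMC was described by 3 probes, of which 2 were tested. On probe A_72_P232287, the normalized log2 intensity was 14.07, 13.47, 13.93 and 13.01 in treated cells on arrays 1 to 4, against 13.73, 13.92, 14.22 and 12.89 in control cells. Treated cells were thus higher on arrays 1 and 4 and lower on arrays 2 and 3, so each dye orientation held both signs and the groups overlapped. The log2 ratios of treated over control cells were 0.34, -0.45, -0.29 and 0.13, and the fitted ratio was -0.07 (0.953-fold, 95% interval -0.35 to 0.21, adjusted p = 0.9999 by limma). The interval spans 0.785-fold to 1.16-fold on the gene table, the widest of the members described here by 4 arrays. The sign rested on single arrays: the POMC ratio was 0.08 without array 2 and 0.09 without array 3, and -0.23 and -0.21 without array 1 or 4. Without array 1 the value is the mean of the 2 tested POMC probes, as the other probe, described next, then has a value on every array kept.

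Probe A_72_P668559 of POMC had a value on 3 arrays, because the local background of its spot was uneven on array 1. Its log2 intensity on arrays 2, 3 and 4 was 12.54, 12.96 and 12.01 in treated cells and 12.74, 13.36 and 11.99 in control cells. The fitted log2 ratio of -0.245 (95% interval -0.45 to -0.04) had an unadjusted p of 0.0261 and an adjusted p of 0.9999 by limma. With the spot on array 1 kept, where the ratio was 0.10, the fitted value was -0.12 (-0.33 to 0.09), with an unadjusted p of 0.233 by limma. With array 1 kept, the value of this probe thus stayed below 0, but it was smaller in size and its interval held 0.

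The third POMC probe, A_72_P671668, was not tested. Its spot had an uneven local background on arrays 2 and 4, so only the arrays with treated RNA in Cy5 remained. There the log2 intensity was 17.76 and 17.90 in treated cells and 17.27 and 17.37 in control cells, a log2 ratio of 0.49 and 0.53. With the uneven spots kept, the 4 ratios were 0.42, -0.80, 0.42 and -0.11, above 0 where treated RNA was red and below 0 where it was green. The fitted treatment term was then -0.02 (95% interval -0.26 to 0.22). No POMC difference passed the threshold. In bulk cultures, a change in the share of corticotrophs and a change in POMC RNA per corticotroph cannot be told apart.

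**Figure D1:**
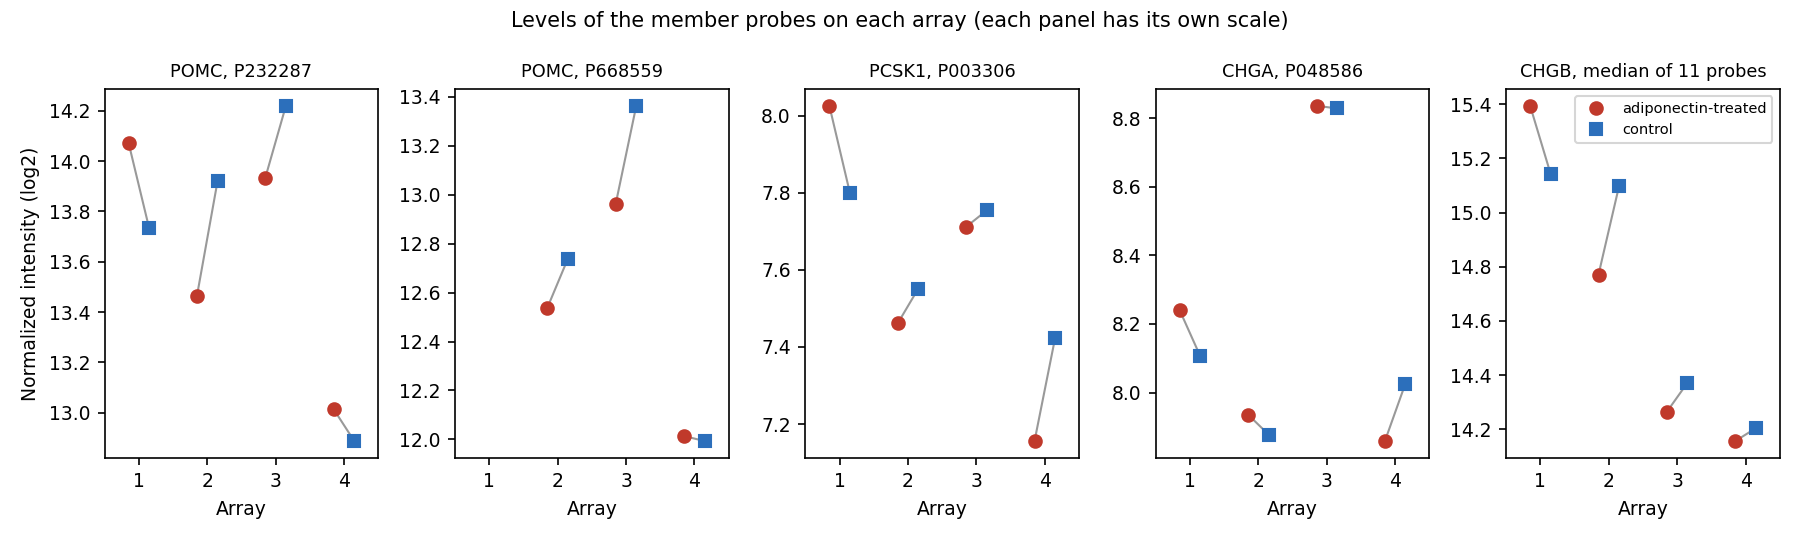
Normalized log2 intensity (vertical axis, its own scale in each panel) on each of the 4 arrays for adiponectin-treated cells (red circles) and control cells (blue squares), joined by array, for the tested probes of POMC, PCSK1 and CHGA and for the median of 11 CHGB probes. Treated cells lie above control cells on some arrays and below them on others in every panel, and the range over arrays exceeds the largest gap between the RNAs of an array. POMC probe P668559 has no value on array 1.

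Of the convertases, PCSK1 was measured and PCSK2 was near background. On the tested PCSK1 probe, A_72_P003306, the log2 intensity was 8.03, 7.46, 7.71 and 7.16 in treated cells, against 7.80, 7.55, 7.75 and 7.42 in control cells on arrays 1 to 4. Treated cells were higher on array 1 and lower on the other 3 arrays, with overlapping groups. The fitted log2 ratio was -0.04 (0.970-fold, 95% interval -0.21 to 0.12, adjusted p = 0.9999 by limma). Its signal was modest, at 138.5 to 217.5 intensity units in treated and 134.5 to 232 in control RNA over a local background of 24 to 32. Of its other probes, A_72_P180766 was well above background on 2 of 4 arrays in each RNA and A_72_P444061 on 0 of 4, so neither was tested.

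PCSK2 had 1 probe, A_72_P441519, well above background on 1 of 4 arrays in treated RNA and on 1 of 4 in control RNA. Its log2 intensity was 6.14, 5.70, 6.20 and 6.69 in treated cells and 6.22, 5.90, 6.27 and 6.75 in control cells. Treated cells were lower on all 4 arrays, but at signals mostly not well above background. Among the tested probes with 4 arrays, 2.93% held this pattern. The PCSK2 probe did not pass the filter of those probes, and no share over unfiltered probes is given. No fold change is given for PCSK2. Without the filter, the 95% interval of its log2 ratio was -0.24 to 0.03, which holds 0.

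Chromogranin A had the smallest fitted difference of the 4 measured genes. The log2 intensity of its probe A_72_P048586 was 8.24, 7.94, 8.84 and 7.86 in treated cells, against 8.11, 7.88, 8.83 and 8.03 in control cells. Both RNAs of array 3 were high, and the sign of the difference was positive on arrays 1 to 3 and negative on array 4. The fitted log2 ratio was 0.01 (1.01-fold, 95% interval 0.901-fold to 1.12-fold, adjusted p = 0.9997 by limma on the gene table). The direction of CHGA turned below 0 without array 1 or 2, at -0.02 and -0.05.

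Chromogranin B was the best covered member, with 15 probes, of which 13 were tested and 11 had values on all 4 arrays. The mean log2 ratio of the 11 probes was 0.06, -0.19, -0.29 and 0.01 on arrays 1 to 4. As with POMC probe A_72_P232287, this mean lay above 0 on arrays 1 and 4 and below 0 on arrays 2 and 3. On array 4 that was not the sign of most CHGB probes. There 8 of the 13 tested probes were below 0, with a median of -0.04, while the probes of rows 499 and 517 had 0.29 and 0.44. The fitted ratio was -0.10 (0.933-fold, 95% interval 0.823-fold to 1.06-fold, unadjusted p = 0.240, adjusted p = 0.9997 by limma). Leaving out array 1 gave -0.18 and array 4 -0.15, whereas without arrays 2 and 3 the ratio was -0.06 and -0.01.

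All 13 tested CHGB probes had a fitted ratio below 0, from -0.17 to -0.05 with a median of -0.11 and an SD over probes of 0.04. The 95% interval of each of the 13 held 0. The probes share the RNA of the same 4 arrays, so their common sign is no replication of the treatment. The lowest, A_72_P572829, had log2 ratios of -0.01, -0.10 and -0.28 on arrays 1, 3 and 4. With its spot of uneven background on array 2 kept, where the ratio was 0.06, the fitted ratio of this probe was -0.10 (95% interval -0.27 to 0.06). The highest, A_72_P600933, had 0.19, -0.29, -0.08 and -0.002 on arrays 1 to 4. On single arrays, 8 of 12 CHGB probes were above 0 on array 1, 3 of 12 on array 2, 0 of 13 on array 3 and 5 of 13 on array 4. No tested member probe with 4 arrays had the same sign on all of them, against 3.01% of such probes above 0 and 2.93% below 0 on all 4 arrays. Without array 1, 8 of the 16 member probes then tested were below 0 on all remaining arrays. With treated RNA read as red throughout, 2 of the 17 were below 0 on all 4. Those 16 and 17 include 12 and 13 CHGB probes, which share RNA. No share over all tested probes is given for these settings, which the percentages above do not cover, so neither count is read as an excess.

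The remaining CHGB probes, A_72_P579852 and A_72_P630013, had values on 1 and 2 arrays after spots of uneven background were left out. With those spots kept, their fitted log2 ratios were -0.07 (95% interval -0.24 to 0.09) and -0.18 (-0.35 to -0.01), and 15 of 15 CHGB probes lay below 0. With median centring in place of loess, 8 of the 13 probes were below 0, and the CHGB ratio kept its sign at -0.002.

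**Figure D2:**
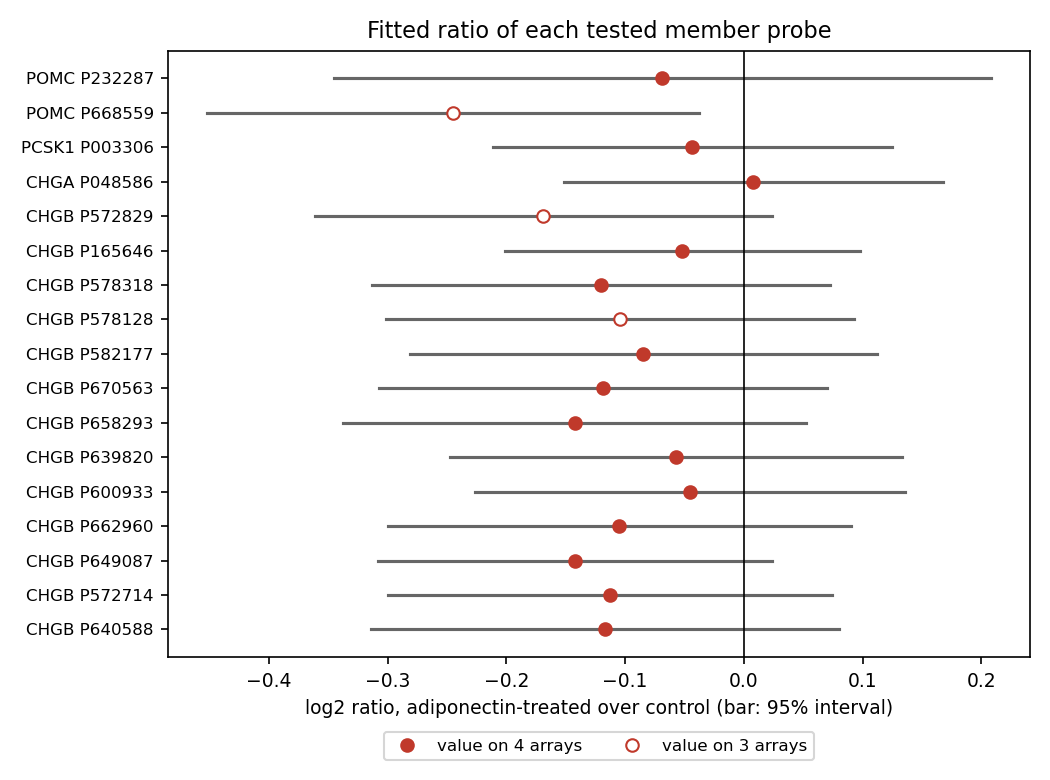
Fitted log2 ratio of adiponectin-treated over control cells (horizontal axis) with its 95% interval for each of the 17 tested member probes (rows), filled where the probe had values on 4 arrays and open where it had 3. The 13 CHGB probes lie between -0.17 and -0.05, and POMC probe P668559 is the one whose interval leaves out 0.

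**Figure D3:**
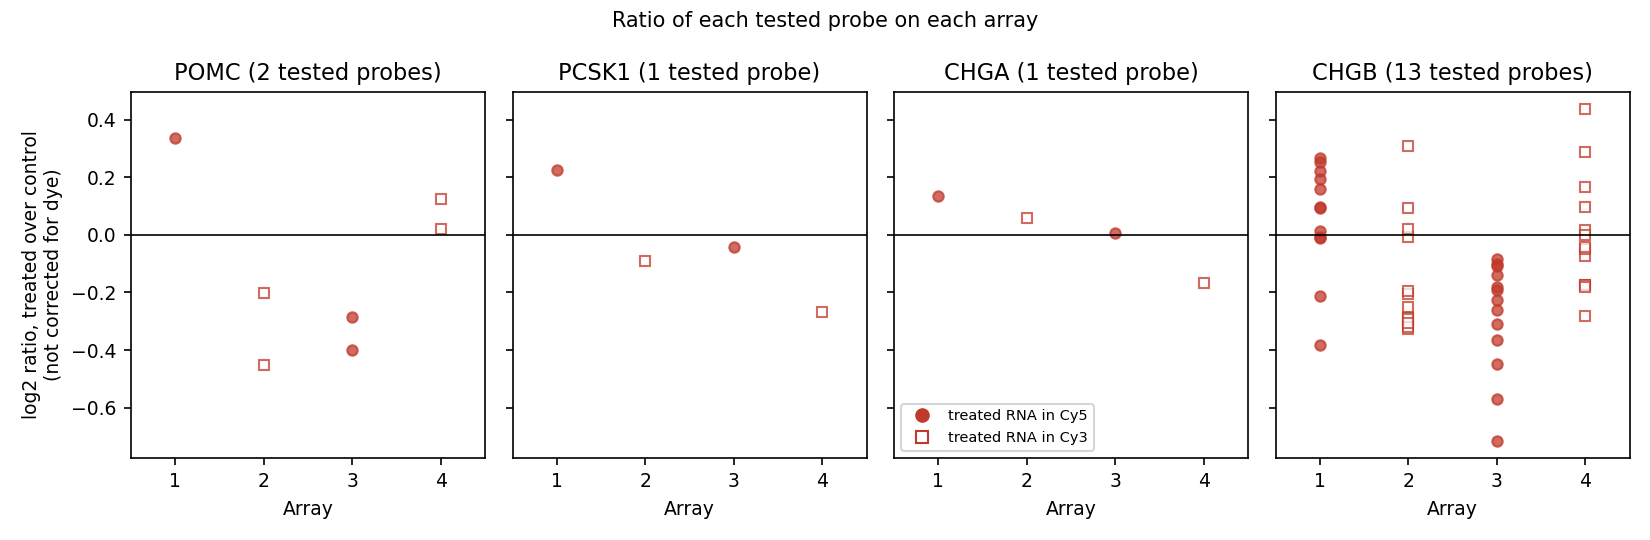
Log2 ratio of treated over control cells (vertical axis, not corrected for dye) of every tested probe on arrays 1 to 4, filled circles where treated RNA was in Cy5 and open squares where it was in Cy3. POMC and the bulk of CHGB probes lie higher on arrays 1 and 4 than on arrays 2 and 3, while PCSK1 and CHGA are lowest on array 4.

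The CHGB probes agreed on the treatment term but not on the dye term, which is the part of the red over green ratio that does not follow the treatment. Their dye terms ran from -0.41 to 0.14 (SD 0.19 over 13 probes), a wider spread than that of their treatment terms (SD 0.04). The 3 CHGB probes on rows 499 to 517 of the 532 rows of the array had dye terms from -0.41 to -0.27, and the 10 probes on rows 53 to 388 had dye terms from -0.07 to 0.14. The treatment terms of these 3 probes (-0.14 to -0.10) lay within the range of the other 10 (-0.17 to -0.05). Over all tested probes, the median dye term was 0.09 to 0.12 in the blocks of rows 1 to 133 and -0.19 to -0.18 in those of rows 479 to 532, while the median treatment term lay between -0.03 and 0.02 in every block. On array 3 the lowest CHGB ratio was -0.72, on probe A_72_P658293 of row 517, whose dye term was -0.41. After the local median of each region of the array was subtracted, a setting chosen after the data were seen, the CHGB ratio was -0.10 (95% interval -0.28 to 0.07) and 3 probes still had dye terms of -0.31 to -0.17.

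**Figure D4:**
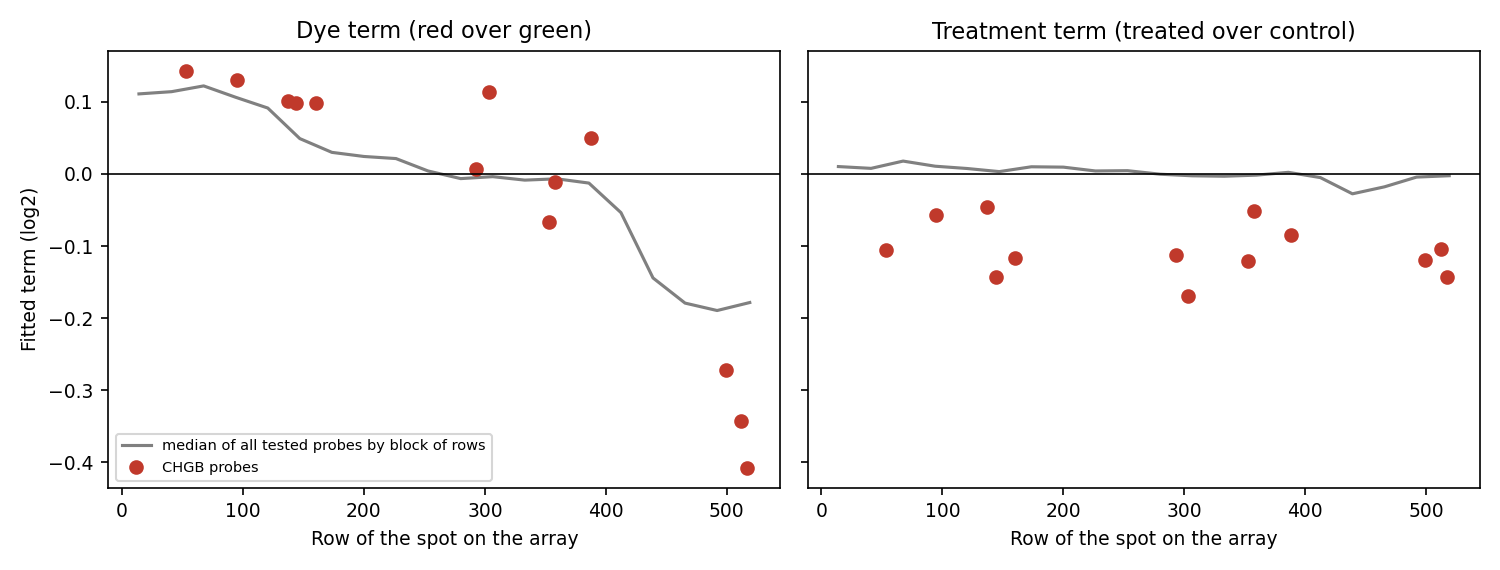
Fitted dye term (left) and treatment term (right) on the log2 scale against the row of the spot on the array for the 13 tested CHGB probes (red points), with the median of all tested probes in blocks of rows (grey line). The dye terms fall to between -0.41 and -0.27 for the 3 probes on rows 499 to 517, and the treatment terms stay between -0.17 and -0.05 at every row.

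The levels of the granule genes differed more between arrays than between the RNAs of an array. The median log2 intensity of the 11 CHGB probes was 15.39, 14.77, 14.27 and 14.16 in treated cells and 15.14, 15.10, 14.37 and 14.20 in control cells on arrays 1 to 4. Array 1 was the highest in both RNAs for 11 of these 11 probes, and array 4 the lowest in both for 9. The gap between the highest and the lowest array was 0.91 to 1.68 on the log2 scale. The SD of the level over arrays was 0.29 to 0.70 for the tested CHGB probes, 0.48 to 0.69 for those of POMC, 0.44 in treated and 0.42 in control cells for CHGA, and 0.37 and 0.18 for PCSK1. Over all tested probes the median SD was 0.18 in treated and 0.19 in control cells, with a 95th percentile of 0.47 and 0.48. POMC was likewise lowest on array 4 in both RNAs, whereas CHGA was highest on array 3. Whether arrays differ through the gilts, the cultures or the hybridisation was not tested. Differences between arrays that both RNAs share cancel in the ratio. On the gene table its SD over arrays was 0.36 for POMC, 0.20 for PCSK1, 0.13 for CHGA and 0.17 for CHGB. The CHGB value is for the mean of 11 probes, so it is not comparable with the SDs of single probes above. For PCSK1 the SD of the ratio was above that of the control level. Over all tested probes the median SD of the ratio was 0.17.

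As a description over 4 arrays, with the dye term removed, the named genes whose ratios lay nearest to those of each member were taken from 1888 others by Euclidean distance. They were GNAI2 (distance 0.130) and IGFBP5 (0.157) for POMC, and HTR1D (0.0382) and ZHX1 (0.0457) for PCSK1. For CHGA they were FCGR3A (0.0184) and TTC13 (0.0315), and for CHGB PPP2R1A (0.0484) and NNAT (0.0675). With 4 values per gene many genes lie close by, and no p is given.

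The other genes of peptide processing and secretion were taken from 4 lists. None of their tested genes passed the threshold in the limma fit on the gene table (background 0% of 23654 features), none had an unadjusted p under 0.05 (background 0.939% higher and 1.83% lower), and none had 1 sign on all 4 arrays (background 2.97% above and 3.07% below 0). Over all 1955 named genes tested, the median log2 ratio was 0.006.

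Of the granins and other granule cargo, 5 of 17 listed genes were tested, with 2 ratios above and 3 below 0 and a median log2 ratio of -0.02. The granins SCG2, SCG3 and SCG5, of which SCG5 encodes the 7B2 chaperone of PCSK2, had -0.05, -0.04 and -0.02. These 3 and CPE below were picked after their values were seen, for their nearness to the members. The prodynorphin gene PDYN had the largest ratio of the list, 0.14 (95% interval -0.22 to 0.51), from single-array values of 0.28, -0.40, 1.41 and -0.72 that were above 0 where treated RNA was in Cy5. Without array 3 it was -0.14, and with treated RNA read as red throughout it was 0.70 and passed the threshold (adjusted p = 0.0344 by limma). The galanin gene GAL had 0.07 on 3 arrays.

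Of the peptide processing enzymes, 6 of 23 listed genes were tested, 5 with ratios above and 1 below 0 (median 0.09). The one below was CPE, the carboxypeptidase that trims the basic residues left by the convertases, at -0.10 (95% interval -0.27 to 0.07), with 7 of its 7 probes below 0. Its value lay beside that of CHGB, but on single arrays it was -0.05, 0.07, -0.17 and -0.26, so the pattern over arrays differed from that of CHGB. The lysosomal cathepsins CTSH and CTSB had ratios of 0.12 (-0.05 to 0.29) and 0.12 (-0.04 to 0.28). With treated RNA read as red throughout, CTSH and CTSB were at -0.04 and -0.18.

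Of the regulators and receptors of corticotrophs, 13 of 37 listed genes were tested, 7 above and 6 below 0 (median 0.003). CRHR1 had a log2 ratio of 0.03 (95% interval -0.11 to 0.18), and NR3C1, the glucocorticoid receptor through which cortisol restrains POMC, had 0.02 (-0.14 to 0.17). The largest ratios were those of HSD11B1 and POU1F1. HSD11B1, which regenerates active glucocorticoid, had 0.11 (-0.04 to 0.25), with 6 of its 6 probes above 0. POU1F1 had -0.08 (-0.24 to 0.08). It is the transcription factor of somatotrophs, lactotrophs and thyrotrophs rather than of corticotrophs, but the list and its counts included it. CRHR1 and NR3C1 were picked after their values were seen, and HSD11B1 was at -0.19 with treated RNA read as red throughout.

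Of the genes of regulated exocytosis, 7 of 46 listed genes were tested, 4 above and 3 below 0 (median 0.02). The syntaxin gene STX16 had 0.08 (-0.07 to 0.22) and ARF1, a GTPase of vesicle budding, -0.08 (-0.27 to 0.11) on 3 arrays. With its spot of uneven background kept, ARF1 was at 0.01, and with treated RNA read as red throughout at 0.14.

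The direction of each ratio follows the channel labels of the arrays. With these labels, treated over control ratios of 25043 probes correlated at -0.48 to -0.43 between arrays of opposite dye orientation. Between arrays of the same orientation the correlation was 0.57 (arrays 1 and 3) and 0.25 (arrays 2 and 4). Over all tested probes the SD of the dye term was 0.16 and that of the treatment term 0.08. The cause of these correlations was not tested. The wording of the labelling protocol puts treated RNA in Cy5 throughout. Read that way, the ratios were 0.10 for POMC, 0.13 for PCSK1, 0.06 for CHGA and -0.01 for CHGB, none past the threshold on the gene table, and treatment and dye cannot be told apart. Of the member probes, 1 then passed, CHGB probe A_72_P658293 at -0.41 (adjusted p = 0.0315 by limma), against 2342 of 25883 tested. That probe lies on row 517; under this reading the CHGB probes of rows 499 and 512 had -0.27 and -0.31, and those of rows 53 to 388 had -0.07 to 0.14.

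**Figure D5:**
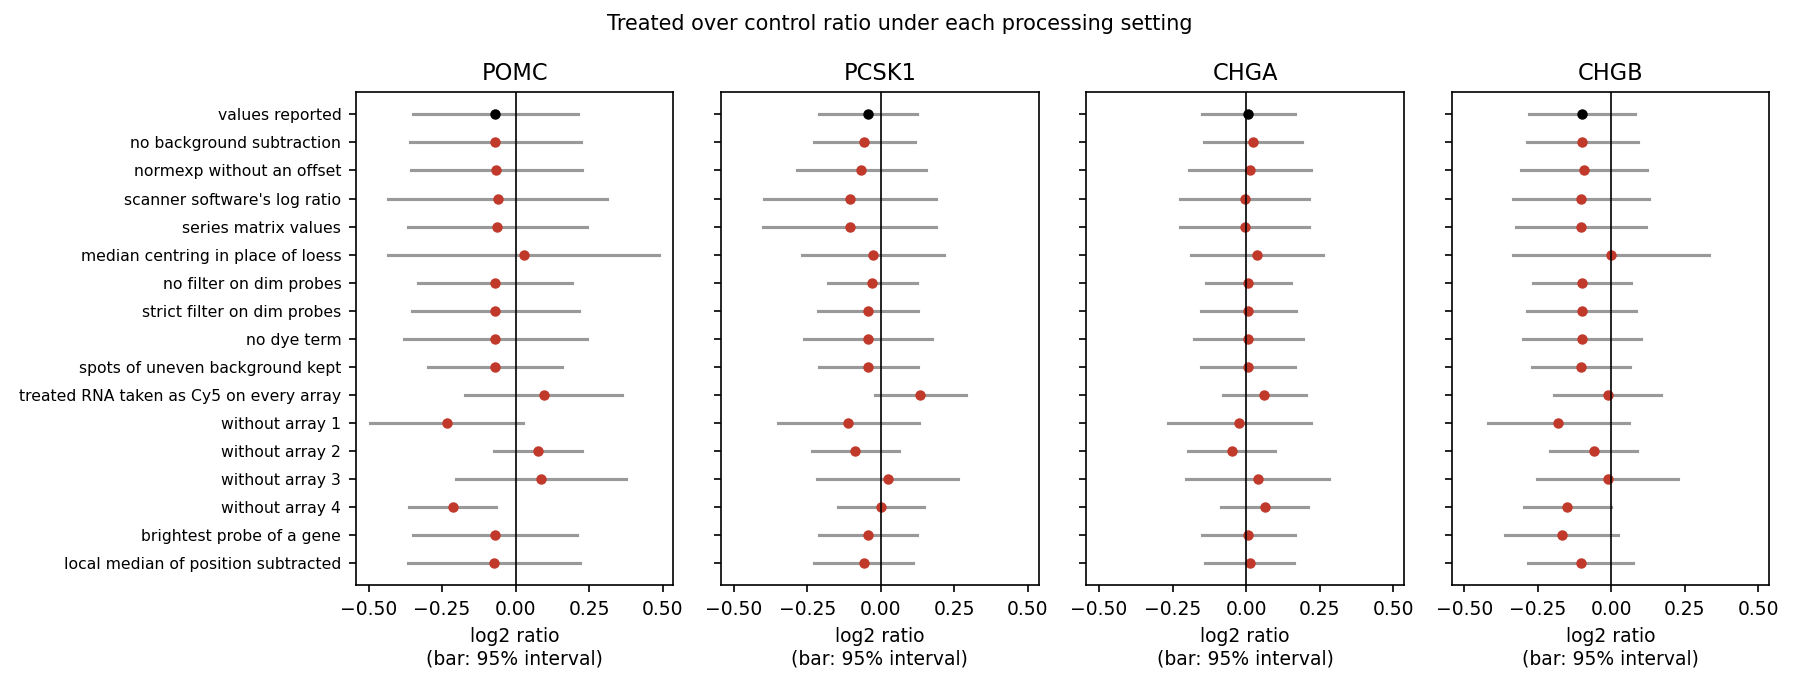
Log2 ratio of treated over control cells (horizontal axis) with its 95% interval for POMC, PCSK1, CHGA and CHGB under the values reported (black) and under each other processing setting and each array left out (red). CHGB stays at or below -0.002 in every row, POMC changes sign under 4 of the 16 other rows, and the values of PCSK1 and CHGA lie between -0.11 and 0.13.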

How the data were processed

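RNA of adiponectin-treated and control cells was compared on 4 two-colour arrays on 1 slide, 2 with treated RNA in Cy5 and 2 in Cy3. Per the file headers, the authors quantified them with Agilent Feature Extraction 10.7.3.1 (design 026440). The deposited scanner files give each spot's linear intensity in both dyes and their log10 ratio, red over green. The authors' deposited value table is on a log2 scale and lay within 0.01 of the scanner's processed ratio for 99.99% of probes on each array, with column medians of -0.04, 0.08, 0.04 and -0.05. The mean signal named in the plan is not among the columns used here, so the median was used. Background was corrected with normexp (offset 50), ratios were normalized by loess, and spots flagged as outliers or of uneven background (939 to 1350 of 43803 per array) were left out. Probes well above background in 1 RNA on at least 3 arrays, with at least 3 values, were tested (25883, of which 840 had 3 arrays) with limma 3.58.1 in R 4.3.3: a dye and a treatment term, eBayes, two-sided, Benjamini-Hochberg over all probes. The number of arrays limits the precision. A second fit used 1 row per named gene (mean of its tested probes with 4 values). Levels were normalized between arrays by Aquantile. RefSeq annotation of Sscrofa11.1 named 5578 of the 43603 probes. Probe and protein sequences were not used here. Members and lists were chosen with earlier results of these data known. Beyond the members and the cell type markers, genes were named by Euclidean nearness to a member. Others were the 2 largest ratios of a list in which none had a p under 0.05 or 1 sign on all arrays. SCG2, SCG3, SCG5, CPE, CRHR1 and NR3C1 fell outside these rules and were picked after their values were seen. Alternatives covered background, offset, normalization, filters, the dye term, direction, probe summary and single arrays.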

Additional observations from a re-analysis of the deposited data

Results flagged for a closer look

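Among 28 values with 4 arrays (the members, their tested probes, the named list genes and the list medians), 1 had an array far from the others, where chance gives about 1 in 20. CHGB probe A_72_P640588 had a log2 ratio of 0.22 on array 1 (0.2232), against -0.26 to -0.18 on arrays 2 to 4.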

How the results depend on the processing

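The count of probes past the threshold was 0 under each setting with 4 arrays except treated RNA read as red throughout, where 2342 probes, 1829 features of the gene table and 1 member probe passed. With 1 array left out, it ran from 0 to 828 for probes and from 0 to 878 for the gene table, with 720 and 697 without array 2 and 828 and 878 without array 4, and no member probe passed. The number of CHGB probes below 0 was 13 of 13, 12 without a dye term, 8 with median centring and 5 with treated RNA read as red. It was 6 to 12 with 1 array left out (12 of 12 without array 1, 10 of 12 without 2, 6 of 11 without 3, 11 of 11 without 4). POMC turned to 0.027 with median centring and 0.10 with treated RNA read as red and ran from -0.23 to 0.087 with 1 array left out. PCSK1 turned to 0.13 with treated RNA read as red and ran from -0.11 to 0.024. CHGA turned to -0.0036 with the scanner software's log ratio and to -0.0036 in the series matrix, and ran from -0.049 to 0.064. CHGB ran from -0.17 to -0.002 in the settings with 4 arrays and from -0.18 to -0.01 with 1 array left out. The -0.17 is that of its brightest probe, A_72_P572829, which had values on 3 arrays. Of the list genes, CTSB, CTSH and HSD11B1 turned to -0.18, -0.04 and -0.19 with treated RNA read as red, ARF1 to 0.14 there and to 0.0077 with uneven spots kept, and PDYN to -0.14 without array 3 (-0.14 to 0.43 over the arrays left out), with 0.70 and an adjusted p of 0.0344 by limma when treated RNA was read as red. The causes were not tested. Fits with 3 arrays have 1 array alone in its dye orientation. The fitted ratio within each array is itself paired, and no replicate number pairs the RNAs further.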
